A study of Homo sapiens with 6 samples.

Results

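The genes of cholesterol and fatty acid synthesis were examined in neuroendocrine prostate cancer (NEPC) cells with and without induction of a MUC1 short hairpin RNA (shRNA). The set comprised 31 genes, chosen by symbol, among the 28008 gene symbols of the count table. It was divided into 5 regulators (SREBF1, SREBF2, SCAP, INSIG1 and INSIG2), 19 genes of the sterol arm and 7 genes of the fatty acid arm. All 31 genes were present in both deposited tables, and all 31 were among the 17026 genes that passed the filter on low counts.

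Cells make cholesterol from acetyl-CoA through the mevalonate pathway, squalene and lanosterol, and make fatty acids from the same precursor through malonyl-CoA. Most enzymes of both routes are transcribed under the sterol regulatory element-binding proteins (SREBPs). These factors are made as membrane precursors, escorted by SCAP to the Golgi for cleavage when sterols are low, and held in the endoplasmic reticulum by the INSIG proteins when sterols are high. Prostate cancer cells are known for active lipid synthesis, and serum in the growth medium is an outside source of the same lipids.

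NCI-H660 (H660) is a cell line from a human NEPC. All 6 libraries came from H660 cells that carried a tetracycline-inducible MUC1 shRNA and had been selected with puromycin. The 3 DOX-negative libraries came from cells given 0.1% DMSO as vehicle, and the 3 DOX-positive libraries came from cells given doxycycline (DOX) at 500 ng/ml, which switches on the shRNA. The comparison addressed which transcripts depend on MUC1-C, the transmembrane subunit encoded by MUC1. A single shRNA was used, no library of cells with a control shRNA plus DOX was analysed here, and DMSO is given for the DOX-negative cells only. Silencing of MUC1, an effect of DOX itself and an effect of the vehicle therefore cannot be told apart. The labels speak only of cells cultured in triplicates, so the p-values measure the spread between these cultures, which may be technical.

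Total counts ranged from 47620696 to 74061121 per library. Levels are given in normalized CPM, which are counts scaled to a common library size with TMM factors, and levels per gene length in TPM. The targeted gene MUC1 was at 88.2, 90.2 and 79.6 CPM without DOX and at 36.7, 37.2 and 29.9 CPM with DOX, with a 95% interval of the log2 fold change from -1.53 to -1.11. The granin CHGA was at 29.8 ± 6.7 TPM (SD, n = 3) and the synaptic vesicle protein gene SYP at 19.4 ± 2.46 TPM without DOX, and they were at 26.3 ± 4.92 and 19.5 ± 3.77 TPM with DOX, while KLK3 was listed at 0 in all 6 libraries. Of the other neuroendocrine markers, INSM1 fell by 0.45 on the log2 scale (SE 0.11, adjusted p = 0.039) and NCAM1 by 0.50 (SE 0.094, adjusted p = 0.014), and ENO2 had a value of 0.13 (SE 0.16, adjusted p = 0.71). INSM1 and NCAM1 were, like most members, lowest in DOX-positive replicate 3. Among markers of other cells, 5 fibroblast genes summed to 2.41 to 3.47 TPM without DOX and 2.46 to 3.64 TPM with DOX. The sum holds moves in both directions. The mean of COL1A1 went from 0.745 to 1.13 TPM and that of LUM from 0.323 to 0.691 TPM with DOX. The mean of COL1A2 went from 1.81 to 1.15 TPM, and DCN and PDGFRB were near 0. The 4 leukocyte markers summed to 0.691 to 0.991 TPM without DOX and 1.01 to 1.31 TPM with DOX. The mean of CD68 went from 0.349 to 0.613 TPM and that of CD14 from 0.478 to 0.531 TPM with DOX. CD3E was at 0 in every library, and PTPRC had at most 1 count in any library. The part of such markers in the results was not tested.

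The stretches upstream of the start sites of a few members are printed to show the letters of SREBP-related motifs at the 3 members that fell (HMGCS1, TM7SF2 and ACLY), at SREBF2, and at PMVK, whose value was near 0. They cover the 250 bases before the RefSeq start (GRCh38.p14), on the strand of the gene. The letters of the sterol regulatory element (TCACNCCAC, with its core CACCCCAC) and of the CCAAT box are in capitals, where ATTGG is a CCAAT box on the other strand. The SREBF2 stretch (chr22:41832855-41833104, plus strand) holds the only TCACNCCAC found in the members' windows, with its first base 133 bases before the start, and a CCAAT box at 106 bases. The HMGCS1 stretch (chr5:43313413-43313662, minus strand, the first of 2 listed) holds 2 CCAAT boxes at 155 and 100 bases, the TM7SF2 stretch (chr11:65111622-65111871, plus strand) holds 1 at 74 bases, and the ACLY stretch (chr17:41919023-41919272, minus strand, the first of 2 listed) holds 2 at 65 and 23 bases. The PMVK stretch (chr1:154936720-154936969, minus strand) holds none of these letters.
SREBF2: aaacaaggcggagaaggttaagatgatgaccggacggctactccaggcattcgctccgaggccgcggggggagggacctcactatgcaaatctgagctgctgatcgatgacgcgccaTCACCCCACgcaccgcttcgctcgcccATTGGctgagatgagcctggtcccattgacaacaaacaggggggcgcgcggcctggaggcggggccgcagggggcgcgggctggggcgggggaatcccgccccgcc
HMGCS1: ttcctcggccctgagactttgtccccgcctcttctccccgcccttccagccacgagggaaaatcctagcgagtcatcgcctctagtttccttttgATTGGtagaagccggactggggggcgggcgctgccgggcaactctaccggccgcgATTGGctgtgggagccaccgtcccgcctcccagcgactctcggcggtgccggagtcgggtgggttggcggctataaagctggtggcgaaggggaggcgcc
TM7SF2: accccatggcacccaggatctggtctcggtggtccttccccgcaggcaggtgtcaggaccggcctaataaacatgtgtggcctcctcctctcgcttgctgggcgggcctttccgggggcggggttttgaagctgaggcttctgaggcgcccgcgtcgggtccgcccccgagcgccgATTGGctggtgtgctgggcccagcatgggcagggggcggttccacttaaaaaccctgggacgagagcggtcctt
ACLY: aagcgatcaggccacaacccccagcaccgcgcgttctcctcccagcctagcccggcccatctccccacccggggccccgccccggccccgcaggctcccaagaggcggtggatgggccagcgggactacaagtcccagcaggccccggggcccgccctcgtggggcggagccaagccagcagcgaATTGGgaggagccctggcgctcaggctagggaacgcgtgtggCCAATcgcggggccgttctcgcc
PMVK: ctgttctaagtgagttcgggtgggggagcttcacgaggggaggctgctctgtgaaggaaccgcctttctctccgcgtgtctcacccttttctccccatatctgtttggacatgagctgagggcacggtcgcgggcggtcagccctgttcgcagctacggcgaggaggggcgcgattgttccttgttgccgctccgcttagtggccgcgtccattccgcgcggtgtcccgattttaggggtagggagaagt

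RefSeq entries were matched for 27 of the 31 members, with 37 such windows, and none was matched for ACAT2, FDFT1, SQLE and FASN. A CCAAT box was found on either strand in 23 of the 37 windows (62.2%), against 32% of the 35116 windows of all genes. TCACNCCAC was found in 1 of the 37 windows, against 0.883% of all windows, and CACCCCAC, which overlaps it, in the same window, against 2.43% of all windows. The E-box CACGTG was found in 4 windows (10.8%), at INSIG1, SC5D and SCAP, against 6.34% of all windows. A match of letters is a description of the window and does not show that a factor binds there.

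Expression of the pathway was lower in DOX-positive than in DOX-negative libraries for most members, but few single genes passed the test. Of the 31 members, 25 had a log2 fold change below 0, where 49.9% of all tested genes did, and their median was -0.25, where the median of all genes was 0.00034. Genes were called by edgeR's quasi-likelihood test, where the Benjamini-Hochberg adjusted p over all genes was under 0.05. HMGCS1, TM7SF2 and ACLY fell, and 0 members rose in this test or in DESeq2. Across all genes 4.87% were called, 1.96% as lower and 2.91% as higher. At an unadjusted p under 0.05, 16 members were lower and 0 were higher, where 9.53% of all genes were lower. In bulk RNA, fewer cells with a transcript and less of it per cell cannot be told apart. The 3 DOX-positive libraries lay below all 3 DOX-negative libraries for 12 members and above them for 0 members, against 13.3% and 14.8% of all genes.

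**Figure D1:**
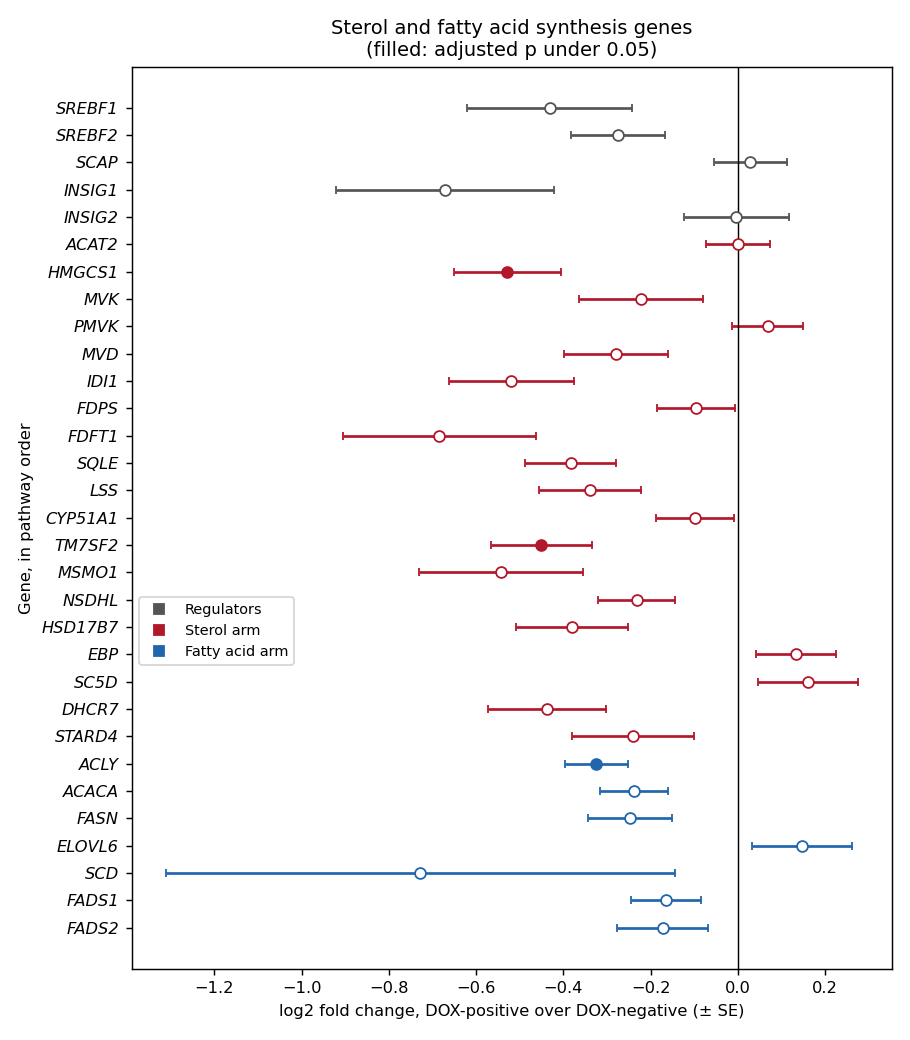
The log2 fold change of DOX-positive over DOX-negative (horizontal axis) with its standard error (SE) for the 31 members in pathway order, coloured by group, with filled points for an adjusted p under 0.05. The filled points are HMGCS1, TM7SF2 and ACLY, and 25 of the 31 points lie left of 0.

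In the regulator group, 0 of 5 genes passed the edgeR test or that of DESeq2, 2 were lower at an unadjusted p under 0.05, and the median was -0.28. Across all genes, edgeR called 4.87% and DESeq2 6%, and 9.53% were lower at the unadjusted level. SREBF2, which encodes the SREBP with the stronger preference for sterol genes, was at 131, 150 and 146 CPM without DOX and at 130, 127 and 96.1 CPM with DOX. Its groups did not overlap, although DOX-negative replicate 1 and DOX-positive replicate 1 were nearly equal. The log2 fold change of SREBF2 was -0.28 (SE 0.11, adjusted p = 0.17), and it was -0.15 if DOX-positive replicate 3 was left out. SREBF1, which encodes the SREBP that drives fatty acid genes, was at 50.2, 64.1 and 58.5 CPM without DOX and at 48.4, 50.1 and 29.7 CPM with DOX. All 3 DOX-positive libraries were lower, with DOX-positive replicate 3 far below the other two, and the log2 fold change was -0.43 (SE 0.19, adjusted p = 0.24), or -0.23 if that library was left out. SREBF1 and SREBF2 share their loci with the microRNA genes MIR33B and MIR33A.

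INSIG1, whose product retains the SREBP precursor and whose gene is itself an SREBP target, had the largest negative value among the regulators. It was at 33.8, 45.7 and 44.3 CPM without DOX and at 35.0, 25.1 and 17.6 CPM with DOX. DOX-positive replicate 1 lay inside the DOX-negative range, and the other two DOX-positive libraries lay below it. The log2 fold change of INSIG1 was -0.67 (SE 0.25, adjusted p = 0.19), and it was called in 1 of the 21 alternatives, which left out DOX-positive replicate 1 (-0.95, adjusted p = 0.0084). If DOX-positive replicate 3 was left out, the INSIG1 value was -0.45 with an adjusted p of 0.16. The escort SCAP was close to 0 at 0.029 on the log2 scale (SE 0.084, adjusted p = 0.88), with a 95% interval from -0.15 to 0.21, and INSIG2, the second retention protein, was at -0.0031 (SE 0.12, adjusted p = 0.99), with an interval from -0.27 to 0.26.

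In the sterol arm, 2 of 19 genes passed the test, both lower, 11 were lower at an unadjusted p under 0.05, and 15 had a log2 fold change below 0. The median was -0.28, and 8 genes had no overlap between the groups. Across all genes, 1.96% were called lower, 9.53% were lower at an unadjusted p under 0.05, and 13.3% were lower without overlap. HMGCS1 encodes HMG-CoA synthase, which commits acetyl units to the mevalonate pathway. It was at 118, 143 and 139 CPM without DOX and at 113, 79.5 and 85.3 CPM with DOX. The groups did not overlap, and DOX-positive replicate 1 was close to the lowest DOX-negative library. HMGCS1 fell by 0.53 on the log2 scale (SE 0.12, adjusted p = 0.033), from 134 ± 13.5 to 92.6 ± 17.9 CPM (SD, n = 3). The call was lost without DOX-negative replicate 2 or 3 or DOX-positive replicate 2 or 3, with adjusted p values of 0.14, 0.16, 0.12 and 0.10, while the value stayed between -0.70 and -0.43 over the alternatives.

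The other genes that lead to farnesyl diphosphate were not called. IDI1, the isopentenyl diphosphate isomerase, was at 37.8, 48.0 and 51.9 CPM without DOX and at 38.9, 30.1 and 26.9 CPM with DOX, so that the groups overlapped only through replicate 1 of each. Its log2 fold change was -0.52 (SE 0.14, adjusted p = 0.062). MVD, the mevalonate diphosphate decarboxylase, had a value of -0.28 (SE 0.12, adjusted p = 0.21) without overlap between the groups, or -0.14 if DOX-positive replicate 3 was left out. The kinases of the pathway had values of -0.22 for MVK (SE 0.14, adjusted p = 0.41, and -0.047 if DOX-positive replicate 3 was left out) and 0.068 for PMVK (SE 0.082, adjusted p = 0.69). ACAT2, the thiolase that joins the first 2 acetyl units, was at 61.9 ± 2.13 and 61.9 ± 3.01 CPM, with a 95% interval of the log2 fold change from -0.16 to 0.16. FDPS, the farnesyl diphosphate synthase, had a value of -0.096 (SE 0.089, adjusted p = 0.59). Reads of FDPS and IDI1 are uncertain where the counting could share them with 10 and 3 annotated pseudogenes, and ACAT2 overlaps TCP1 and SOD2.

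FDFT1, SQLE and LSS carry farnesyl diphosphate through squalene to lanosterol, and all had no overlap between the groups. FDFT1, the squalene synthase, was at 76.2, 95.5 and 89.5 CPM without DOX and at 67.4, 58.8 and 36.4 CPM with DOX. Its log2 fold change of -0.68 was the largest in the sterol arm, but with an SE of 0.22 the adjusted p was 0.14. Without DOX-positive replicate 3, which was farthest from the rest, the FDFT1 value shrank to -0.46 and its adjusted p was 0.040. SQLE, the squalene epoxidase, was at 161, 201 and 179 CPM without DOX and at 158, 134 and 123 CPM with DOX, and its log2 fold change was -0.38 (SE 0.10, adjusted p = 0.056). LSS, which closes the ring to lanosterol, had a value of -0.34 (SE 0.12, adjusted p = 0.12), and the value was -0.20 if DOX-positive replicate 3 was left out.

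Among the genes that turn lanosterol into cholesterol, TM7SF2, a sterol reductase, was the one called. It was at 19.4, 22.1 and 19.9 CPM without DOX and at 14.8, 17.6 and 12.7 CPM with DOX, with no overlap. TM7SF2 fell by 0.45 on the log2 scale (SE 0.12, adjusted p = 0.047). The adjusted p lay close to 0.05, and 13 of the 21 alternatives did not make the call. These included the fits without DOX-negative replicate 1, 2 or 3 or DOX-positive replicate 1 or 3, where its adjusted p was 0.061, 0.19, 0.15, 0.086 and 0.12. DHCR7, the last reductase of one branch, was at 56.2, 67.3 and 61.8 CPM without DOX and at 51.7, 50.5 and 34.7 CPM with DOX. The groups of DHCR7 did not overlap, and its log2 fold change was -0.44 (SE 0.13, adjusted p = 0.086), or -0.27 if DOX-positive replicate 3 was left out and -0.54 (adjusted p = 0.049) if DOX-positive replicate 1 was.

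The 3 genes of C4 demethylation had values of -0.54 for MSMO1 (SE 0.19, adjusted p = 0.14), -0.23 for NSDHL (SE 0.089, adjusted p = 0.16) and -0.38 for HSD17B7 (SE 0.13, adjusted p = 0.11). MSMO1 overlapped between the groups through DOX-positive replicate 1, at 20.1 CPM against 18.1 CPM in DOX-negative replicate 1. CYP51A1, the lanosterol demethylase, had a value of -0.098 (SE 0.089, adjusted p = 0.58). The isomerase EBP and the desaturase SC5D had positive values of 0.13 (SE 0.091, adjusted p = 0.44) and 0.16 (SE 0.11, adjusted p = 0.47). SC5D was highest in DOX-positive replicate 3, at 73.4 CPM, the library in which most members were lowest, and without it the SC5D value was 0.00024. STARD4, a carrier of sterol between membranes, had a value of -0.24 (SE 0.14, adjusted p = 0.35).

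In the fatty acid arm, 1 of 7 genes passed the test, as lower, 3 were lower at an unadjusted p under 0.05, and the median was -0.24. Across all genes, 1.96% were called lower and 9.53% were lower at the unadjusted level. ACLY, the ATP citrate lyase that supplies cytosolic acetyl-CoA to both arms, had the smallest SE of any member. It was at 384, 392 and 402 CPM without DOX and at 314, 331 and 295 CPM with DOX, so the groups were well apart. ACLY fell by 0.32 on the log2 scale (SE 0.072, adjusted p = 0.027). The call was lost without DOX-negative replicate 1, 2 or 3 or DOX-positive replicate 1 or 3, with adjusted p values of 0.059, 0.13, 0.12, 0.054 and 0.088, while the value stayed between -0.36 and -0.28.

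ACACA, the acetyl-CoA carboxylase that makes malonyl-CoA, was at 121, 125 and 132 CPM without DOX and at 115, 107 and 99.0 CPM with DOX. The groups did not overlap, and the log2 fold change was -0.24 (SE 0.078, adjusted p = 0.10). FASN, the synthase that builds palmitate, was at 218, 236 and 213 CPM without DOX and at 187, 214 and 161 CPM with DOX, with a small overlap between the groups. Its log2 fold change was -0.25 (SE 0.097, adjusted p = 0.17). FASN was at -0.15 if DOX-positive replicate 3 was left out, and it was called if DOX-positive replicate 2 was left out (-0.35, adjusted p = 0.037) or trends in GC content and length were removed (adjusted p = 0.0065).

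SCD encodes the desaturase that places the first double bond into stearate and palmitate, and it had both the most negative value and the largest SE of the members. It was at 263, 400 and 362 CPM without DOX and at 333, 209 and 77.1 CPM with DOX. The DOX-positive libraries stood at 97.4%, 61.2% and 22.6% of the DOX-negative mean, so replicate 1 was inside the DOX-negative range and replicate 3 was far below it. The log2 fold change of SCD was -0.73 (SE 0.58, adjusted p = 0.56), with a 95% interval from -2.28 to 0.83. Leaving out DOX-positive replicate 1 gave -1.26 (adjusted p = 0.29), and leaving out DOX-positive replicate 3 gave -0.33 (adjusted p = 0.57). SCD has 1 annotated pseudogene.

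The desaturases of polyunsaturated fatty acids had values of -0.16 for FADS1 (SE 0.081, adjusted p = 0.27) and -0.17 for FADS2 (SE 0.10, adjusted p = 0.38), and these 2 genes overlap each other. If DOX-positive replicate 3 was left out, FADS1 was at -0.11 and FADS2 at -0.060. ELOVL6, which lengthens palmitate, had a value of 0.15 (SE 0.12, adjusted p = 0.51). ELOVL6 was also the member with the lowest level per length, at 1.02 ± 0.062 TPM without DOX. The highest levels per length without DOX were 53.7 ± 11.0 TPM for FADS2, 48.9 ± 5.68 TPM for ACLY and 43.4 ± 7.0 TPM for FDPS. This order held in each DOX-negative library, with FADS2 at 52.8, 65.1 and 43.2 and ACLY at 49.9, 54.0 and 42.7 TPM. FDPS was at 44.3, 49.9 and 36.0 TPM in these libraries. SCD at 33.7 ± 8.73, SQLE at 33.6 ± 6.71, EBP at 33.0 ± 5.92 and FADS1 at 32.0 ± 5.69 TPM came next. The order of these genes differed between the libraries, and differences between genes were not tested.

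**Figure D2:**
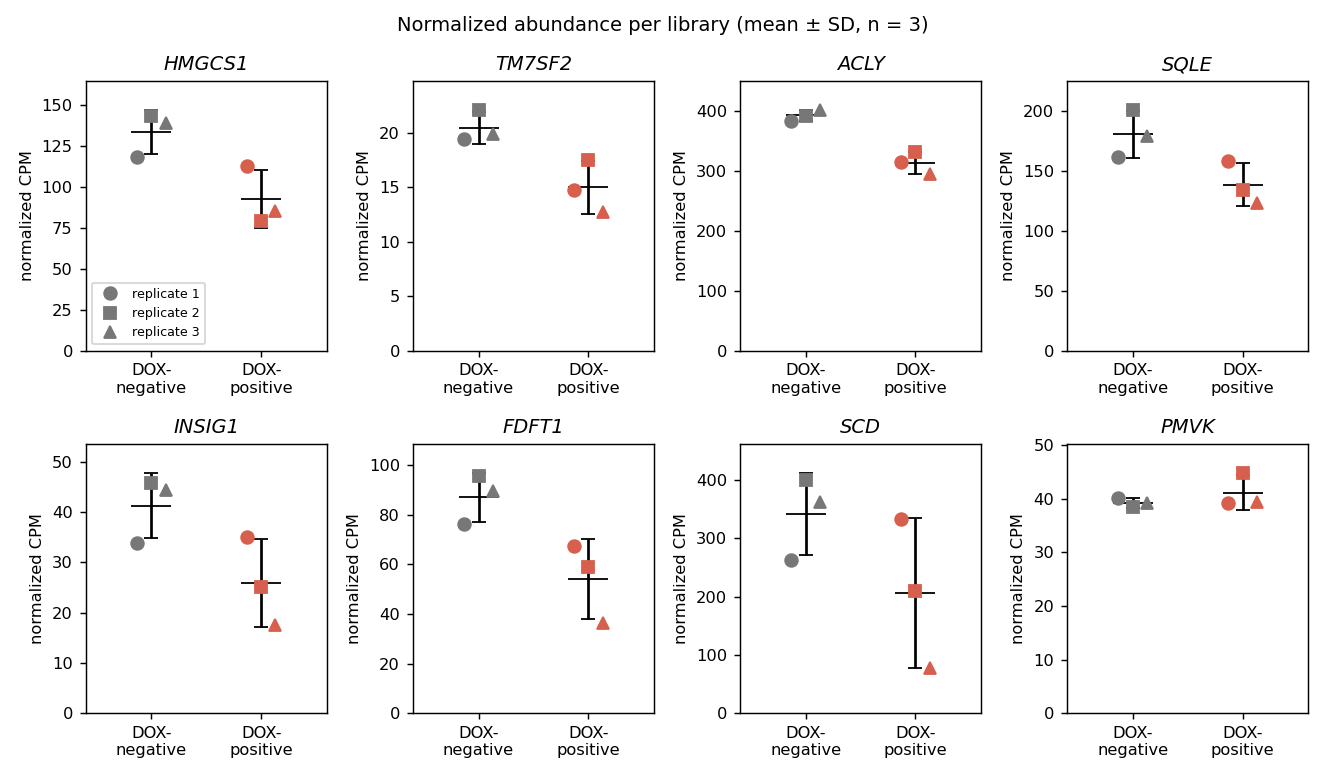
Normalized CPM (vertical axes, starting at 0) in the 3 DOX-negative (grey) and 3 DOX-positive (red) libraries for 8 members, with a symbol for each replicate number and black bars for the mean ± SD (n = 3). ACLY and TM7SF2 are apart between the groups, SCD spreads from 77.1 to 333 CPM within the DOX-positive group, and PMVK is at 38.4 to 44.9 CPM in all libraries.

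For most members the libraries stood in a like order, and the DOX-positive libraries differed in how low they were. DOX-positive replicate 3 was the lowest of the 6 libraries for 23 of the 31 members, where it was the lowest for 23.3% of all genes. DOX-negative replicate 2 was the highest for 18 members. DOX-positive replicates 1, 2 and 3 lay below all 3 DOX-negative libraries for 16, 22 and 25 members, respectively, against 28.2%, 37.2% and 35.4% of all genes. MUC1 itself was at similar levels in these 3 libraries, with the lowest value in replicate 3.

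The mean deviation of the sterol arm from each gene's average over the 6 libraries was 0.025, 0.22 and 0.17 on the log2 scale in DOX-negative replicates 1, 2 and 3. In the DOX-positive libraries it was 0.0011, -0.095 and -0.32. The fatty acid arm gave 0.048, 0.21 and 0.16 without DOX and 0.040, -0.064 and -0.40 with DOX. In both arms the lowest DOX-negative library, replicate 1, and the highest DOX-positive library, replicate 1, were almost level. For the regulators, at -0.014, 0.24 and 0.21 without DOX and 0.040, -0.072 and -0.40 with DOX, the groups overlapped at these 2 libraries. Without DOX-positive replicate 3 the medians were -0.20 in the sterol arm, -0.15 in the fatty acid arm and -0.15 for the regulators. Of the 25 members with a negative value, 11 came nearer to 0 by over 1.5 times without it. With that library kept and DOX-positive replicate 1 left out, they were -0.39, -0.25 and -0.35. The number of members called was 1 (FDFT1) if DOX-positive replicate 3 was left out, where 0.939% of all genes were called lower, and 7 if DOX-positive replicate 1 was left out, where 2.44% were.

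**Figure D3:**
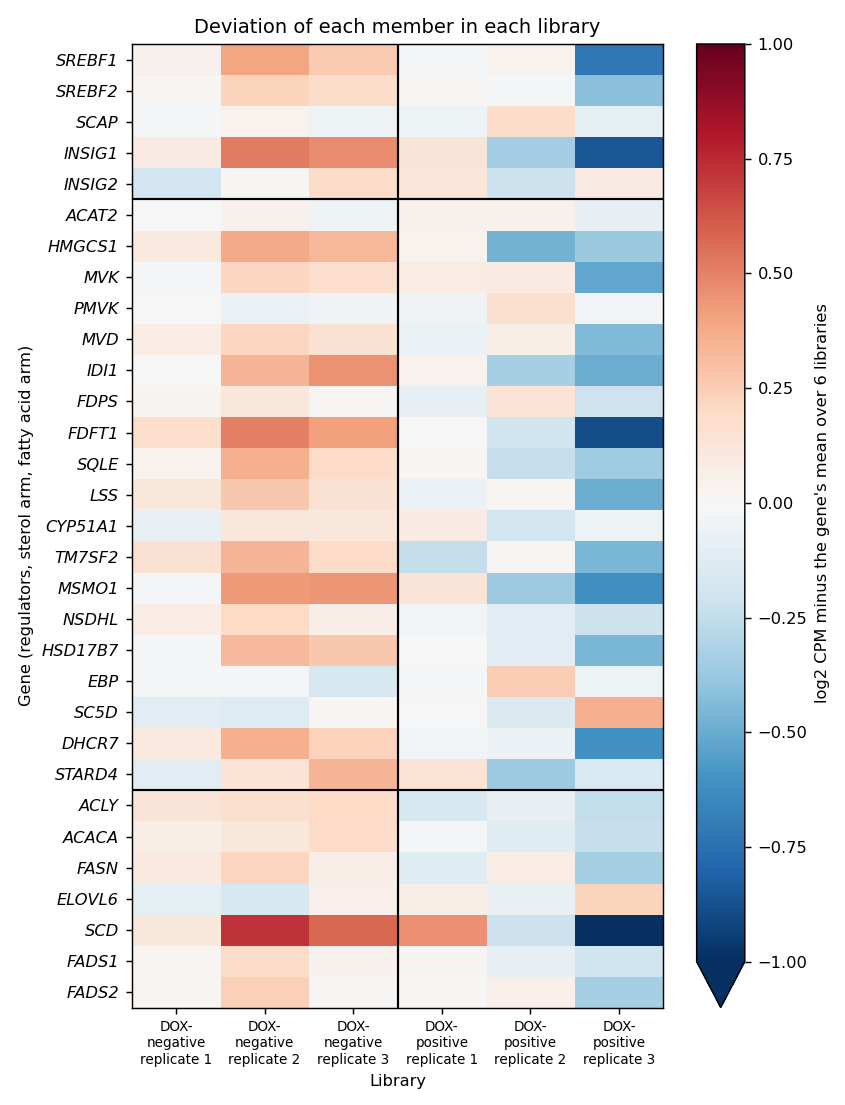
Colour gives the log2 CPM of each member (rows) in each library (columns) minus that gene's mean over the 6 libraries, with blue for lower and red for higher values. DOX-positive replicate 3 is the lowest library for 23 of the 31 members and DOX-negative replicate 2 the highest for 18, and SC5D and ELOVL6 have the opposite pattern in DOX-positive replicate 3.

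The values were then set beside the letters upstream of the genes. The 19 members with a CCAAT box in at least 1 window had a median log2 fold change of -0.32, with 17 below 0, and ranged from -0.73 for SCD to 0.16 for SC5D. The 8 members with a window but no CCAAT box (CYP51A1, ELOVL6, FADS1, FADS2, INSIG2, PMVK, SCAP and SREBF1) had a median of -0.051, with 5 below 0, and ranged from -0.43 for SREBF1 to 0.15 for ELOVL6. The split is a description of few genes, and the difference was not tested.

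Neighbouring genes of lipid metabolism, in lists written for this comparison, had medians nearer 0. The list of sterol and mevalonate neighbours, such as the prenyl synthase GGPS1, had 0 of 8 tested genes called and a median of 0.022. The genes of SREBP processing and sterol sensing, such as the SREBP proteases MBTPS1 and MBTPS2, had 0 of 13 tested genes called and a median of 0.070. The neighbours of fatty acid synthesis, such as ACSS2 and the other elongases, had 0 of 22 tested genes called and a median of 0.036. At an unadjusted p under 0.05, these 3 lists had 2, 3 and 3 genes, of which 0, 2 and 0 were lower, where 21.1% of all genes passed this level in either direction and 11.6% as higher. DESeq2, which called 6% of all genes, called 1, 0 and 1 genes of these lists.

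**Figure D4:**
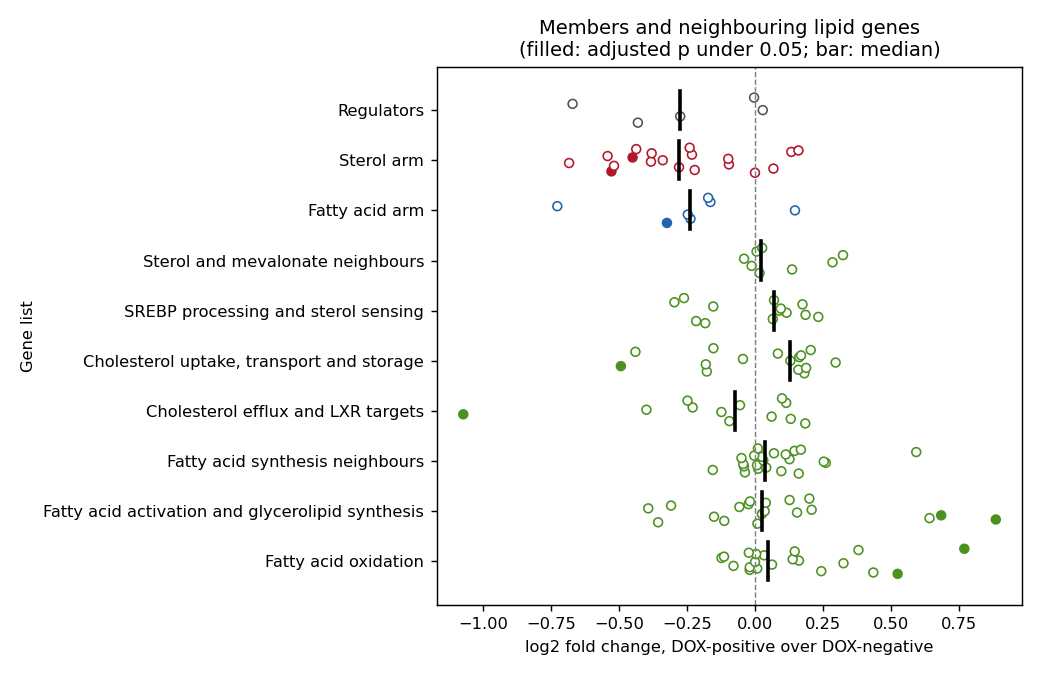
Each point is the log2 fold change of 1 tested gene (horizontal axis) in the members' groups and 7 further lists (vertical axis), with filled points for an adjusted p under 0.05 and a black bar for the median of the list. The medians are -0.28, -0.28 and -0.24 in the members' groups and between -0.074 and 0.13 in the other lists.

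Among genes of cholesterol uptake, transport and storage, 1 of 15 was called, as lower, and the median was 0.13. Across all genes 4.87% were called, 1.96% as lower. At an unadjusted p under 0.05, 5 genes of this list passed, 3 of them lower, where 21.1% of all genes passed. The called gene was VLDLR, a lipoprotein receptor, at 64.1, 70.1 and 76.5 CPM without DOX and at 56.8, 47.9 and 44.9 CPM with DOX. VLDLR fell by 0.49 on the log2 scale (SE 0.099, adjusted p = 0.019) with no overlap between the groups. It overlaps the antisense gene VLDLR-AS1, and the strand setting of the counting is not given in the sources used here. The VLDLR call was lost without DOX-negative replicate 2 or 3 or DOX-positive replicate 2 or 3, at adjusted p values of 0.078, 0.12, 0.053 and 0.051.

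Among genes of cholesterol efflux and targets of the liver X receptors, 1 of 12 tested genes was called and the median was -0.074. At an unadjusted p under 0.05, 3 genes passed, all lower, where 9.53% of all genes were lower. DESeq2 called 2 as lower and 0 as higher, where it called 2.67% of all genes lower. DOX-positive replicate 3 was the lowest library for 7 of the 12 genes, against 23.3% of all genes, with a mean deviation of -0.28. ABCA1, the transporter that exports cholesterol to apolipoproteins, was at 17.3, 18.7 and 19.5 CPM without DOX and at 11.0, 9.04 and 6.29 CPM with DOX. ABCA1 fell by 1.07 on the log2 scale (SE 0.16, adjusted p = 0.0063), and every DOX-positive library was far below the DOX-negative libraries. Without DOX-negative replicate 3 or DOX-positive replicate 2 the adjusted p was 0.057 and 0.064, at values of -1.04 and -1.09. ABCA1 overlaps NIPSNAP3B.

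In the oxidation list, 2 of 20 genes were called, both higher, and the median was 0.048, where 2.91% of all genes were called higher. At an unadjusted p under 0.05, 3 genes of the list passed, 0 of them lower, where 21.1% of all genes passed. DESeq2 called 2 genes of the list as higher and 0 as lower, where it called 6% of all genes. CPT1A, the carnitine transferase that admits long-chain fatty acids to mitochondria, was at 69.5, 57.2 and 56.2 CPM without DOX and at 74.7, 87.2 and 102 CPM with DOX. CPT1A rose by 0.53 on the log2 scale (SE 0.12, adjusted p = 0.026), and its groups did not overlap. PDK4, a kinase that holds pyruvate dehydrogenase inactive, was at 7.93, 6.01 and 5.54 CPM without DOX and at 8.74, 9.93 and 14.7 CPM with DOX, and rose by 0.77 (SE 0.19, adjusted p = 0.048). Without DOX-negative replicate 2 or 3 or DOX-positive replicate 2 or 3, CPT1A had adjusted p values of 0.12, 0.16, 0.10 and 0.068 and PDK4 of 0.18, 0.20, 0.11 and 0.094. The PDK4 call was lost in 14 of the 21 alternatives, RLE factors (adjusted p = 0.053) among them, and the CPT1A call in 8.

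In the list of fatty acid activation and glycerolipid synthesis, 2 of 19 genes were called, both higher, and the median was 0.026. Across all genes 2.91% were called higher. At an unadjusted p under 0.05, 7 genes of this list passed, 2 of them lower, where 21.1% of all genes passed. DESeq2 called 2 as higher and 1 as lower, where it called 6% of all genes. ACSL5, an acyl-CoA synthetase, was at 1.82, 1.24 and 1.79 CPM without DOX and at 2.39, 2.89 and 3.65 CPM with DOX, and rose by 0.89 on the log2 scale (SE 0.20, adjusted p = 0.026). GPAT3, a glycerol phosphate acyltransferase, was at 1.91, 1.47 and 1.58 CPM without DOX and at 2.47, 2.29 and 3.20 CPM with DOX, and rose by 0.69 (SE 0.17, adjusted p = 0.045). The groups of both genes did not overlap, and both were at low levels. Without DOX-negative replicate 2 or 3 or DOX-positive replicate 3, ACSL5 had adjusted p values of 0.12, 0.11 and 0.080 (and 0.050, just past the threshold, without DOX-positive replicate 2) and GPAT3 of 0.18, 0.18 and 0.14. Their calls were lost in 6 and 8 of the 19 alternatives that gave a value.

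**Figure D5:**
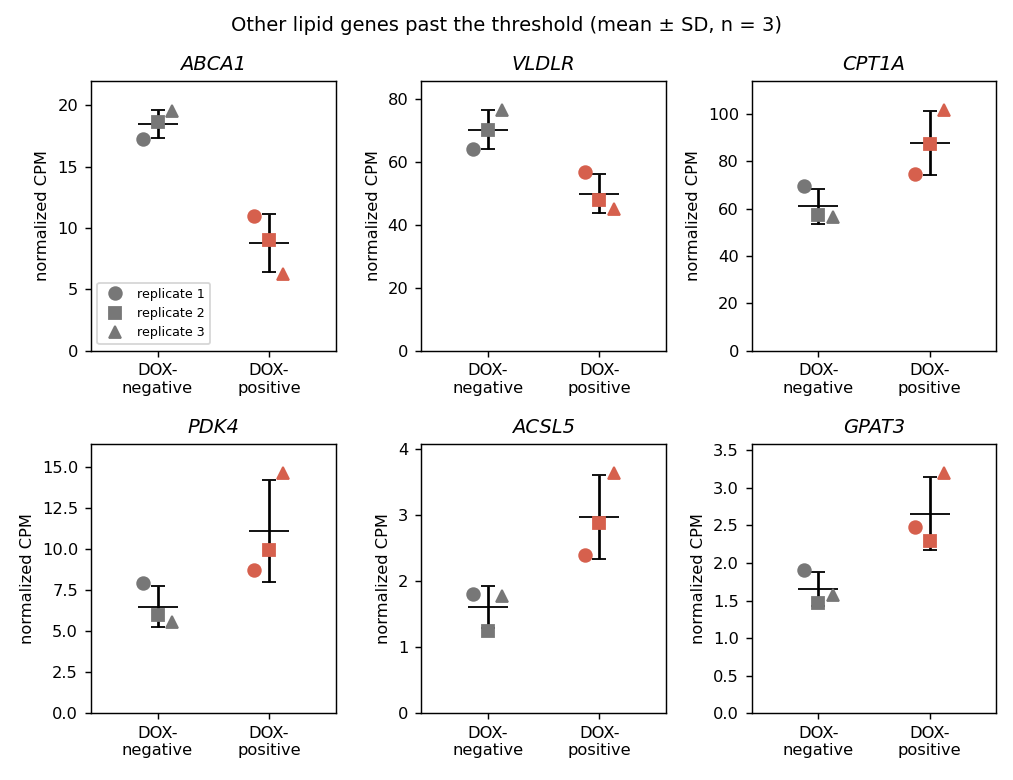
Normalized CPM (vertical axes, starting at 0) per library for the 6 called genes outside the members, in grey for DOX-negative and red for DOX-positive libraries, with a symbol for each replicate number and black bars for the mean ± SD (n = 3). ABCA1 and VLDLR are lower in all 3 DOX-positive libraries, and CPT1A, PDK4, ACSL5 and GPAT3 are higher in all 3.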

How the data were processed

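RNA-seq was performed on 6 libraries of H660/tet-MUC1shRNA cells (3 DOX-negative, 3 DOX-positive), grouped by their titles. Raw counts for each gene symbol were deposited, made with the aligner STAR per the submitters' processing notes, which list the builds GRCh38 and hg38 and the tool DESeq2 without versions. The authors also deposited TPM, which are scaled for gene length and library total. The strand setting and annotation are not given in the sources used here. The labels name a stranded mRNA kit. All entries of the counts named a gene, and 0 columns belonged to no sample. The depth was 47620696 to 74061121 counts per library.

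Counts were filtered with filterByExpr and tested with edgeR 4.0.16 (R 4.3.3, TMM factors, robust glmQLFit, glmQLFTest, no covariate), with Benjamini-Hochberg adjustment over 17026 genes and a threshold of 0.05. SE and 95% intervals were derived from the F statistic, and the code was tested on simulated data. The common biological coefficient of variation was 9.58%. An exact permutation test of 3 against 3 cannot give a p below 0.10. The members and lists were chosen with earlier results of these data known, so lists are described by counts and medians without a test. The genes named are MUC1, all members and the called genes of the other lists, up to 4 each with the largest change.

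Alternatives comprised other scaling factors, count filters, DESeq2 1.42.0, limma 3.58.1 (voom, and limma-trend on log2 of TPM plus 1 or 0.1, filtered at a mean TPM of 1 or unfiltered, or rescaled over protein-coding genes), protein-coding genes only, removal of trends in GC content and length (both known for 93.0% of tested genes), a replicate block, no robust estimation, and leaving out each library. SPRING1 and MARCHF6 were not matched by these symbols. The level of 1 marker gene is not reported here. Promoter windows came from RefSeq (GRCh38.p14).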

Additional observations from a re-analysis of the deposited data

How the results depend on the processing

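The medians of the 3 groups of members kept their sign in all 21 alternatives. The SD between replicates of a group's mean log2 level was 0.14 (sterol arm), 0.17 (fatty acid arm) and 0.19 (regulators). The medians moved by less than these SDs, which are not SDs of the medians. Leaving out 1 library moved the medians to between -0.39 and -0.20 in the sterol arm. The ranges were -0.26 to -0.15 in the fatty acid arm and -0.35 to -0.15 for the regulators. Of 651 values of single members, 596 stayed on their side of the threshold, 31 were no longer called, 24 became called and 0 reversed a call, and 28 of the 31 members had the same sign throughout (SCAP, INSIG2 and ACAT2 did not). HMGCS1, TM7SF2 and ACLY lost their calls in 10, 13 and 8 of the 21 alternatives, over which their adjusted p ranged from 0.0012, 0.0023 and 0.001 to 1.0.

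The counts of calls varied more. Against 829 genes and 3 members, DESeq2 called 1354 genes and 7 members, and removing GC and length trends called 2055 genes (983 higher and 1072 lower, against 496 and 333) and 9 members. Of the genes tested in each fit, DESeq2 called 6% and removing the trends 13%, against 4.87% in the main fit. As lower, they called 2.67% and 6.77%, against 1.96%. Limma-trend called 30 genes with log2(TPM + 1), 35 with log2(TPM + 0.1) and 0 without a filter (332, 329 and 1248 at an unadjusted p under 0.05), each with 0 members (5, 5 and 0 at an unadjusted p under 0.05), and 382 genes and 1 member (ACLY) with rescaled TPM. Without 1 library, between 58 and 1035 genes and between 0 and 7 members were called, with 0 members (7 or 12 at an unadjusted p under 0.05) and 127 or 58 genes without DOX-negative replicate 2 or 3, and 375 genes without DOX-positive replicate 3. The cause of these differences was not tested.

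Adding a replicate block to the design gave 998 calls, which shared 750 genes with the 829, and 5 members (SQLE, LSS, TM7SF2, DHCR7 and ACLY). Deviations of same-numbered libraries correlated at -0.55, 0.027 and -0.086 over 14229 genes, and those of unlike-numbered libraries at -0.19 to 0.35. These few values, taken around means of 3 libraries, cannot show whether the shared numbers pair the samples.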
